A study of Arabidopsis thaliana with 12 samples.

Results

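A set of 52 Arabidopsis thaliana genes had nearly the same mean array signal in the stn8 mutant and in the wild type (WT), on arrays where most probes differed between these groups. The genes were chosen on that comparison, so their closeness is a description and no test of it is given. A gene entered the set where its probe named a single gene, read above 0 on all 12 arrays, averaged at least 0.2 intensity units in both groups, and had an stn8 mean between 13% below and 15% above the WT mean. The table held 3437 probes with a value, of which 692 named 1 gene. Of these, 385 met the conditions on level, and 56 of them fell in the ratio window. PSBY, CRR21, CHLM and AT4G01310 (RPL5, plastid ribosomal protein L5) were left out by name, which leaves 52 of 381 probes (13.6%) as the steady genes.

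Total RNA was hybridised to 12 expression arrays, 6 from the stn8 mutant and 6 from the WT, both of ecotype Columbia 0 by the labels. Allele, tissue, plant age, growth conditions and array design were not given in the sources used for this work. The titles assign the arrays to the mutant and the WT, whereas the source field names the WT for all 12, and no single-gene probe of STN8 was found as a check. Nothing in the labels says that the 6 arrays of a group came from separate plants, so the spread between them may be technical.

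The STN8 kinase sits in the thylakoid membrane, where it phosphorylates the core of photosystem II beside its relative STN7. Most chloroplast proteins are encoded in the nucleus, so signals that start in the thylakoid can reach nuclear transcripts. Transcripts that keep their level across such conditions serve as the scale against which others are measured. In bulk RNA a transcript of the same level can still come from a different number of cells or a different amount of RNA per cell, and these cannot be told apart.

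The median intensity of an array lay between 0.33 and 0.349 in stn8 and between 0.297 and 0.369 in WT. Between 220 and 254 probes were listed at 0 on an stn8 array, against 173 to 190 on a WT array. In many of the genes described here WT arrays 5 and 6 differed from the other WT arrays. The 9 seed and flower markers looked up had no single-gene probe, so the tissue could not be checked.

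The deposited values of stn8 and WT overlapped for all 52 steady genes, as the choice of genes favours, whereas they did not overlap for 55.6% of all probes. In 48 of the 52 the stn8 arrays lay on both sides of the WT mean, which the choice of genes favours as well. The ratio was above 1 for 23 genes and below 1 for 29, with a median of 0.977, and 15 genes lay within 5% of 1. Group means of the steady genes ran in stn8 between 0.201 and 3.98 (median 0.437) and in WT between 0.201 and 4.13 (median 0.47). Intensities of different probes are not compared here as transcript levels, because hybridisation differs between probes.

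**Figure D1:**
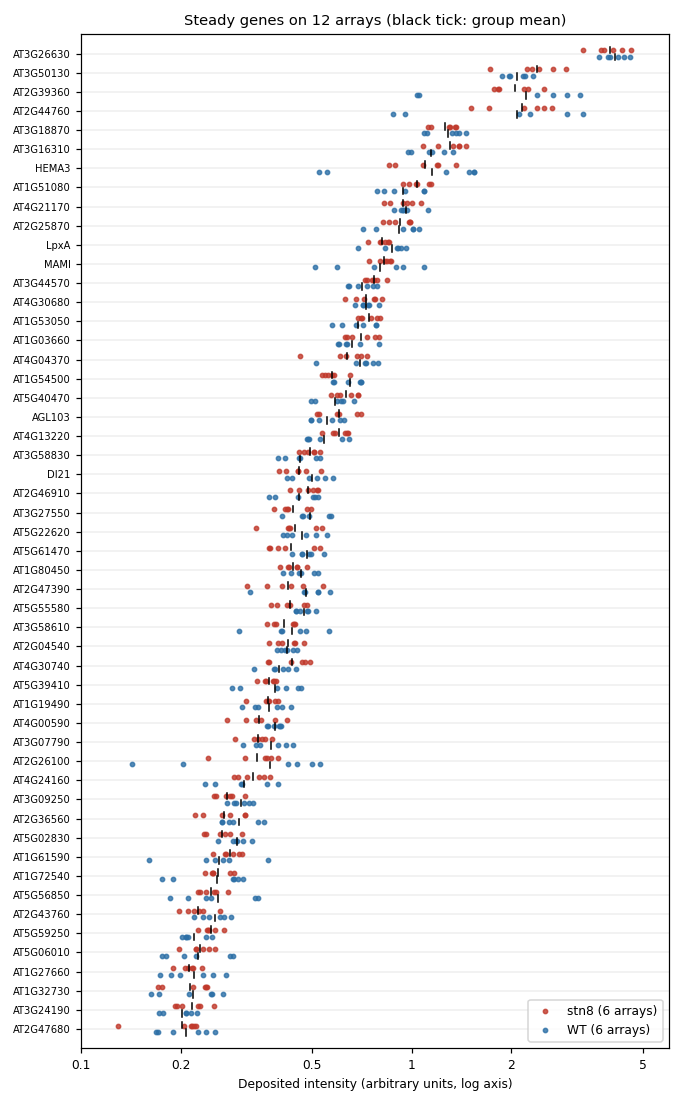
Deposited intensity (arbitrary units, log axis) of each of the 52 steady genes, with the 6 stn8 arrays in red above the 6 WT arrays in blue and a black tick at each group mean. The ticks of a gene lie close together by the choice of genes, while single WT arrays of AT2G26100, HEMA3, AT2G39360 and AT2G44760 lie far to the left.

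The steady genes fell into several role groups, assigned from background knowledge after their values had been seen, and 14 were given no role. Of the others, 8 were placed in organelle gene expression, 8 with plastid enzymes, factors or a transporter, and 7 in other metabolism. Protein kinases made up 5, transcription regulators 5, nuclear RNA processing or the nuclear pore 3, and genes named for drought or mannitol 2. Probes outside the window were given no roles, so these counts do not show whether steadiness goes with a role. By their locus codes 10 lay on chromosome 1, 11 on chromosome 2, 12 on chromosome 3, 9 on chromosome 4 and 10 on chromosome 5. The 329 other probes that met the same conditions on annotation and level numbered 79, 61, 59, 65 and 65 on these chromosomes.

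Genes for organelle gene expression formed a group with ratios from 0.884 to 1.0. AT3G26630, a pentatricopeptide repeat (PPR) protein of the chloroplast, read 3.30 at the lowest, 3.96 at the median and 4.61 at the highest among stn8 arrays, against 3.70, 4.09 and 4.57 among WT arrays. PPR proteins bind organelle transcripts and serve in their editing, splicing and stability. The means of AT3G26630 were 3.98 ± 0.462 in stn8 and 4.13 ± 0.321 in WT (SD, n = 6 each, as for all means here), a ratio of 0.9644. A spot of mean intensity 65.2 lay within 4 spot numbers of it. Spot numbers are the probe numbers as deposited, and whether they follow positions on the array was not stated.

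The other PPR genes were AT5G02830, AT4G04370 and AT4G21170. AT5G02830 averaged 0.267 in stn8 and 0.296 in WT, AT4G04370 0.636 in stn8 and 0.699 in WT, and AT4G21170 0.943 in stn8 and 0.963 in WT. All ratios in this trio were below 1.

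AT5G55580 encodes mTERF9, a plastid member of the family of mitochondrial transcription termination factor-like proteins. Its stn8 arrays read 0.375 at the lowest, 0.424 at the median and 0.481 at the highest, and its WT arrays 0.445, 0.471 and 0.512. Its coefficient of variation (CV, SD over mean among the arrays of a group) was 9.87% in stn8 and 5.66% in WT. Genes were ranked by the mean of these CVs of both groups, called the mean CV, and that of AT5G55580, 7.77%, was among the 6 smallest. AT3G18870, another mTERF protein, read 1.12, 1.30 and 1.36 at the lowest, median and highest in stn8, against 1.09, 1.34 and 1.46 in WT. AT3G27550, a protein with the RNA-binding CRM domain found in plastid splicing factors, read 0.383, 0.421 and 0.495 in stn8 and 0.406, 0.478 and 0.568 in WT, and its ratio of 0.8842 was among the 3 lowest of the set.

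AT2G25870 encodes the plastid endoribonuclease YbeY, which matures ribosomal RNA, and was measured by 2 probes that disagreed. The probe in the steady set read 0.819, 0.891, 0.856, 0.981, 0.985 and 0.988 on stn8 arrays 1 to 6, against 1.01, 1.05, 0.942, 1.01, 0.777 and 0.712 on WT arrays 1 to 6, with a ratio of 1.004. The other probe read 0.42, 0.353, 0.375, 0.369, 0.36 and 0.35 on the stn8 arrays and 1.07, 1.05, 0.842, 0.862, 0.572 and 0.544 on the WT arrays. Its stn8 values all lay below its WT values, and its ratio was 0.451. The log2 fold change of this second probe, which the steady rule did not pick, was -1.25 ± 0.16 (SE) in the limma fit over all probes (adjusted p = 2.51e-05, two-sided). Both probes read lowest on arrays 5 and 6 in WT. The steadiness of AT2G25870 belongs to 1 of its 2 probes.

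Plastid enzymes, factors and a transporter gave ratios from 0.877 to 1.12. AT1G54500 encodes the rubredoxin RBD1, which is needed for photosystem II to accumulate. It read 0.535 at the lowest, 0.566 at the median and 0.652 at the highest in stn8, against 0.579, 0.669 and 0.704 in WT, and its means were 0.575 ± 0.0417 in stn8 and 0.651 ± 0.059 in WT. AT5G22620, a phosphatase of the Rubisco inhibitor 2-carboxyarabinitol 1-phosphate, averaged 0.444 in stn8 and 0.467 in WT. AT3G58830, the phosphatase that completes phosphatidylglycerol in chloroplasts, averaged 0.492 in stn8 and 0.46 in WT, and AT2G46910, a plastoglobule-type fibrillin, averaged 0.485 in stn8 and 0.457 in WT.

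AT5G59250 encodes a sugar transporter of the plastid envelope and lay near the upper end of the window, at a ratio of 1.12. Its stn8 arrays read 0.226 at the lowest, 0.242 at the median and 0.271 at the highest, against 0.202, 0.21 and 0.248 in WT. Its CV was 6.26% in stn8 and 8.85% in WT, and its mean CV was among the 6 smallest of the set. A spot of mean intensity 44.6 lay within 4 spot numbers of it. AT3G58610, ketol-acid reductoisomerase of branched-chain amino acid synthesis, averaged 0.41 in stn8 and 0.435 in WT, with a WT range from 0.3 to 0.563.

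AT2G47390, a chloroplast glutamyl endopeptidase, had the lowest ratio of the set, 0.8772. On arrays 1 to 6 it read 0.317, 0.431, 0.365, 0.406, 0.468 and 0.538 in stn8 and 0.323, 0.476, 0.522, 0.473, 0.565 and 0.52 in WT. Array 1 was the lowest of both groups. Its CV was 18.5% in stn8 and 17.6% in WT, and the range of stn8 covered most of that of WT.

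Genes of other metabolism had ratios between 0.892 and 1.06. AT2G04540, the mitochondrial beta-ketoacyl-ACP synthase of fatty acid synthesis, read 0.371 at the lowest, 0.422 at the median and 0.473 at the highest in stn8, against 0.392, 0.415 and 0.45 in WT. Its CV was 8.85% in stn8 and 5.13% in WT, and its mean CV, 6.99%, was among the 6 smallest. LpxA, named for the acyltransferase that starts lipid A synthesis in bacteria, averaged 0.813 ± 0.043 in stn8 and 0.871 ± 0.0986 in WT. AT2G43760, a molybdopterin synthase subunit of molybdenum cofactor synthesis, averaged 0.225 in stn8 and 0.253 in WT. AT4G24160, a plant homologue of the lipid regulator CGI-58, averaged 0.33 in stn8 and 0.31 in WT. AT5G39410, a saccharopine dehydrogenase family protein, averaged 0.369 in stn8 and 0.385 in WT. AT4G00590, a putative threonine aspartase, averaged 0.346 in stn8 and 0.385 in WT, with a CV of 14.6% in stn8 and of 4.38% in WT, the smallest WT CV of the set.

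The protein kinases had ratios from 0.929 to 1.08. AT3G24190, of the ABC1 family, averaged 0.216 in stn8 and 0.201 in WT, and AT1G53050 averaged 0.74 in stn8 and 0.69 in WT. The receptor-like cytoplasmic kinase genes AT1G61590 (SGN1, known from the Casparian strip of the root) and AT1G72540 belonged to this group as well. AT1G61590 averaged 0.282 in stn8 and 0.261 in WT, and AT1G72540 averaged 0.26 in stn8 and 0.258 in WT. The CV of AT1G61590 was 7.22% in stn8 and 25.6% in WT, and that of AT1G72540 was 8.06% in stn8 and 22.9% in WT. The receptor-like kinase AT2G39360 is described with the genes of large spread.

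The transcription regulators comprised AGL103, a MADS-box protein, AT1G27660, a bHLH protein, AT1G19490, a bZIP protein, AT5G61470, a C2H2 zinc finger protein, and AT1G80450, a VQ-motif protein. Their ratios were 1.093 for AGL103, 0.9663 for AT1G27660, 0.9915 for AT1G19490, 0.8948 for AT5G61470 and 0.9447 for AT1G80450. AGL103 averaged 0.604 in stn8 and 0.553 in WT. For AT1G19490 the means were 0.366 in stn8 and 0.369 in WT.

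Nuclear genes of this kind included AT3G16310, which encodes the nuclear pore protein NUP35 and had the highest ratio of the set, 1.147. It read 1.08 at the lowest, 1.36 at the median and 1.46 at the highest in stn8, against 0.974, 1.14 and 1.33 in WT. AT3G07790, a homologue of the spliceosome-associated human protein DGCR14, averaged 0.343 in stn8 and 0.374 in WT. AT2G47680, a zinc finger helicase, is described with the genes of large spread. DI21, named as drought-induced, averaged 0.455 in stn8 and 0.498 in WT, and MAMI, named as a membrane-associated mannitol-induced protein, averaged 0.824 in stn8 and 0.799 in WT.

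Of the 14 genes with no role given here, AT4G30680 came closest to equal means of deposited values, at 0.729 ± 0.0695 in stn8 and 0.729 ± 0.0402 in WT. In the limma fit over all probes it was called lower in stn8 (log2 fold change -0.21 ± 0.08, SE), against -0.003 without normalization between arrays. Its stn8 arrays read 0.626 at the lowest, 0.743 at the median and 0.812 at the highest, against 0.674, 0.726 and 0.795 in WT. AT3G09250 read 0.252, 0.278 and 0.312 in stn8 and 0.276, 0.303 and 0.331 in WT, and AT3G44570 read 0.724, 0.764 and 0.841 in stn8 and 0.641, 0.71 and 0.784 in WT. These 3 genes were among the 6 of smallest mean CV. AT3G50130 read 1.73, 2.37 and 2.94 in stn8 and 1.87, 2.07 and 2.33 in WT, with a ratio of 1.144 and a CV of 17.3% in stn8 against 8.34% in WT. The ratios of AT1G03660, AT1G32730, AT1G51080, AT2G36560, AT4G13220, AT4G30740, AT5G06010, AT5G40470 and AT5G56850 lay between 0.9046 and 1.112. The remaining gene of these 14, AT2G44760, had the largest mean CV of the set.

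The spread between arrays differed widely among the steady genes. The median CV of the steady genes was 9.61% in stn8 and 12.4% in WT, against 9.24% in stn8 and 14% in WT for the 329 other probes that met the same conditions on annotation and level. Both CVs were under 10% for 10 of the 52 steady genes (19.2%) and for 62 of the 329 others (18.8%). The WT CV was the larger for 33 of the 52 steady genes (63.5%) and for 243 of the 329 others (73.9%). The highest array of a group was a median of 1.28 times the lowest in stn8 and 1.37 times the lowest in WT. These are descriptions, since the groups set side by side are those of the rule.

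**Figure D2:**
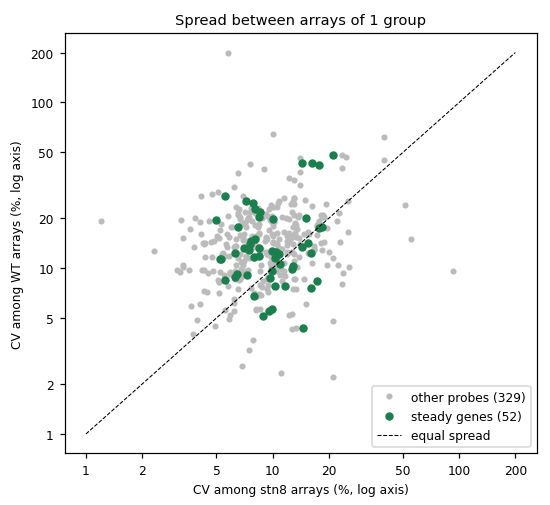
CV among the 6 stn8 arrays (percent, log axis) against CV among the 6 WT arrays (percent, log axis), for the 52 steady genes in green and the 329 other probes in grey, with a dashed line at equal spread. The green points lie within the grey cloud, and 33 of them are above the line.

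In WT the lowest value was on array 5 or 6 for 29 of the 52 steady genes (55.8%), against 50.2% of the other probes. Arrays 5 and 6 both read below all of WT arrays 1 to 4 for 22 steady genes (42.3%), against 33.4% of the 329 other probes. They both read above arrays 1 to 4 for 4 steady genes (7.69%), against 16.4% of the others. In stn8 arrays 5 and 6 both read below the rest for 10 steady genes (19.2%), against 14.0% of the others, and both above them for 11 (21.2%), against 18.8%.

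The 4 steady genes with a WT CV above 40% were AT2G44760, AT2G39360, HEMA3 and AT2G26100. AT2G44760 read 2.66, 2.18, 2.40, 2.51, 1.71 and 1.51 on stn8 arrays 1 to 6, against 3.29, 2.95, 2.28, 2.11, 0.956 and 0.879 on WT arrays 1 to 6. AT2G39360, the receptor-like kinase CURVY1 of cell shape, read 2.51, 2.25, 2.18, 1.84, 1.82 and 1.77 in stn8 and 3.22, 2.95, 2.67, 2.39, 1.04 and 1.05 in WT. In both genes WT arrays 5 and 6 were the lowest of all 12 arrays, and stn8 arrays 5 and 6 were the lowest of their group.

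HEMA3 encodes a glutamyl-tRNA reductase, the enzyme that commits glutamate to chlorophyll and heme synthesis. It read 1.36, 1.20, 1.08, 1.19, 0.893 and 0.851 on stn8 arrays 1 to 6 and 1.54, 1.27, 1.54, 1.49, 0.524 and 0.554 on WT arrays 1 to 6, again with arrays 5 and 6 lowest in both groups. AT2G26100, a galactosyltransferase family protein, read 0.36, 0.393, 0.374, 0.313, 0.364 and 0.242 in stn8 and 0.422, 0.448, 0.498, 0.526, 0.203 and 0.142 in WT.

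With all 6 stn8 arrays kept, the near-equal means of these 4 genes rested on the low values of WT arrays 5 and 6. Arrays 5 and 6 of stn8, also the lowest of their group in AT2G44760, AT2G39360 and HEMA3, were not left out. Ratios without arrays 5 and 6 of both groups were not computed. Without WT arrays 5 and 6 alone the ratio of AT2G44760 was 0.8137 in place of 1.041, and that of AT2G39360 0.7345 in place of 0.9291. That of HEMA3 was 0.7501 in place of 0.9499, and that of AT2G26100 0.7195 in place of 0.9132. All 4 then left the window. Of the 52 steady genes 41 stayed in it without WT arrays 5 and 6. MAMI showed the same low arrays, with 0.509 on WT array 5 and 0.593 on WT array 6 beside at least 0.769 on the others, and its ratio was 0.8931 without them in place of 1.032, inside the window in both cases.

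**Figure D3:**
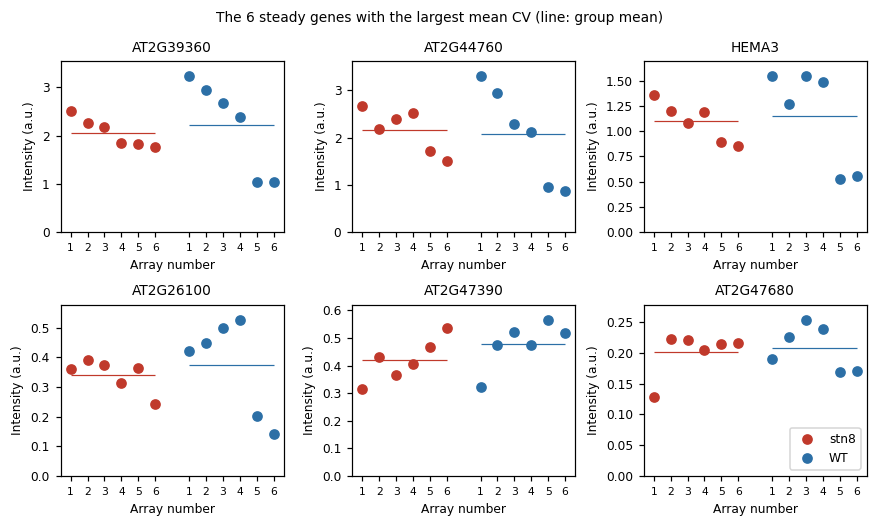
Deposited intensity (arbitrary units) by array number for the 6 steady genes of largest mean CV, with stn8 in red left of WT in blue and a line at each group mean. In the first 4 panels WT arrays 5 and 6 lie far below WT arrays 1 to 4 while the WT mean lies near that of stn8.

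AT2G47680 read 0.129, 0.222, 0.22, 0.205, 0.214 and 0.216 on stn8 arrays 1 to 6, against 0.19, 0.226, 0.253, 0.238, 0.168 and 0.171 on WT arrays 1 to 6. A single low array carried most of its stn8 spread of 17.8%.

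How steady the genes look depends on the scaling between arrays. The deposited values gave a median log2 fold change (stn8 minus WT) of -0.0042 over the 52 genes. After quantile normalization, which gives all arrays the same distribution of values, the median was -0.11 over the steady genes, while the median of all 3437 probes stayed at 0. Of the 52, 41 then had a log2 fold change below 0, and the values ran from -0.42 to 0.22. By its construction this normalization moves probes of like intensity together. The 13 steady genes with a mean under 0.3 over all arrays moved by a median of 0.05 on the log2 scale, the 18 between 0.3 and 0.5 by -0.10, and the 21 above 0.5 by -0.22.

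**Figure D4:**
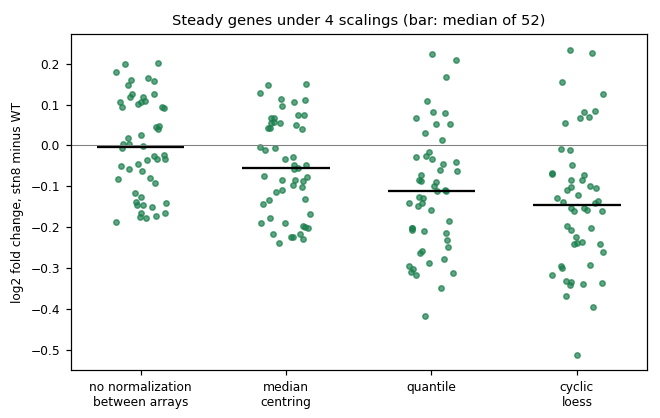
Log2 fold change (stn8 minus WT) of the 52 steady genes under 4 ways of scaling the arrays, with a black bar at the median. The median lies near 0 in the first column and lower in the others. It is -0.056 with median centring, -0.11 with quantile normalization and -0.15 with cyclic loess. With median centring all 3437 probes had a median of -0.054, close to that of the steady genes. The median of all probes was -0.003 without normalization and -0.004 with cyclic loess.

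In the limma fit on quantile-normalized values, 70.4% of all probes passed an adjusted p of 0.05, and 16 of the 52 steady genes did (30.8%), a share that the rule holds down. Of these, 14 were lower in stn8 (35.8% of all probes were) and 2 higher (34.7% of all probes). The 14 were AT3G26630, AT3G18870, AT3G27550, AT4G21170, AT5G55580, AT2G25870, AT1G54500, LpxA, AT4G00590, AT1G80450, AT5G61470, AT3G07790, AT3G09250 and AT4G30680. They held 6 of the 8 genes for organelle gene expression and 0 to 2 genes of each other role group. The roles were assigned after the values had been seen, so this is a description. AT3G26630 had the most negative value of the set, -0.42 ± 0.07 (SE), against -0.06 without normalization. The 2 higher were AT5G59250 (0.22 ± 0.04) and AT3G24190 (0.21 ± 0.08). For AT2G44760 the 95% confidence interval of the log2 fold change ran from -0.89 to 0.64, so its near-equal means leave room for a large difference either way. Without normalization between arrays, limma called 0 of the 52 (2 at an unadjusted p under 0.05) and 70.2% of all probes. It called 5 with median centring (71.6% of all probes) and 19 with cyclic loess (70.5%). With the sample number as a replicate block it called 20 (72.1% of all probes). With neighbouring arrays averaged to 3 values a group it called 4 (58.5% of all probes), and without stn8 array 3 it called 10 (68.1%).

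Genes that are in common use as a scale for plant transcripts were looked up as well. Of 35 such reference genes 1 had a probe of its own, AT2G28390, which encodes the SAND family protein MON1 of vacuolar trafficking. It read 1.35, 1.44, 1.69, 1.49, 1.60 and 1.85 on stn8 arrays 1 to 6, against 0.292, 0.256, 0.395, 0.352, 0.335 and 0.394 on WT arrays 1 to 6. The groups did not overlap, and the ratio of means was 4.658. Its log2 fold change was 2.07 ± 0.13 (SE, limma, adjusted p = 4.34e-08), with all 6 stn8 arrays above the WT arrays. The brightest spot within 4 spot numbers of it had a mean of 0.893. None of the 52 steady genes was on this list.

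Bright spots with numbers close to those of the steady genes were counted as well, though their distance on the array is not known. A spot with a mean above 10 in either group lay within 4 spot numbers of 6 of the 52 steady genes (11.5%) and of 42 of the 329 other probes (12.8%). Of those 329, 128 lay below the ratio window and 201 above it.

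At the ends of the window the steady genes passed into their neighbours without a gap. Just inside the lower end were AT2G47390 (0.8772), AT1G54500 (0.8831) and AT3G27550 (0.8842), and just outside it DME (0.249 in stn8 and 0.287 in WT, ratio 0.8672) and AT3G09490 (0.23 in stn8 and 0.267 in WT). Just inside the upper end were AT3G16310 (1.147), AT3G50130 (1.144) and AT5G59250 (1.12). Just outside it were AT5G38310 (0.973 in stn8 and 0.844 in WT) and AT2G32470 (0.49 in stn8 and 0.424 in WT).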

How the data were processed

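The deposited table held intensity values of 12 arrays, linear and never below 0 as read from the values themselves. The authors' background correction and scaling, and the array design, were not stated in the labels. The number of arrays limits the precision.

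Probes were named through the platform annotation and the TAIR10.1 gene table of RefSeq, which matched 51 of the 52 steady genes. AT1G03660 kept the name of the annotation. No coordinates are printed, since the files name no genome build, and no sequences were used.

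The steady genes were found on the deposited values. For the fit, a 0 took the lowest positive value on its array, values were converted to log2 and quantile normalized, and stn8 was compared with WT with lmFit and eBayes of limma 3.58.1 (R 4.3.3, 6 arrays against 6, two-sided), with Benjamini-Hochberg adjustment over 3437 probes. The fit was also run on simulated data with independent noise on each array and no normalization between arrays. That run does not bear on the scaling or on arrays that vary together. Same-numbered arrays deviated together from their group means (Pearson's r 0.17 to 0.333 in the 6 pairs, above the limit of 0.1). These numbers come from the titles and were used as a block in an alternative. The main fit took the arrays of a group as independent, which the labels do not state.

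The genes, lists and role groups were chosen with earlier results of these data known. Every gene was named. Values by array, or the lowest, median and highest, were given for the 6 highest means, the 6 smallest and 6 largest mean CVs of both groups and the 3 genes nearest each end of the window. Classes by keyword could not be formed, because the tables used hold no gene descriptions, and roles from background knowledge took their place. The lists comprised 35 reference genes, 1 with a probe, and 9 seed and flower markers, 0 with a probe. The alternatives were other windows, levels, averages and scalings, a pseudocount of 0.0584, other variance models, a replicate block, averaged neighbouring arrays and leaving out arrays. Averaging before the fit and leaving out WT arrays 5 and 6 were chosen after seeing the data. Figures were drawn with matplotlib 3.10.9 in Python 3.11.15.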

Additional observations from a re-analysis of the deposited data

Results flagged for a closer look

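Within each group of 6 arrays, the highest or lowest array was compared with the next one, as a share of the whole range, for the 52 steady genes (104 groups of values). An array stood apart in 2 groups, where chance alone marks about 1 group in 20. AT2G47680 read 0.129 on stn8 array 1, against 0.205 on the next lowest stn8 array and 0.222 on the highest. AT4G21170, a PPR gene, read 1.12 on WT array 5, against 0.968 on the next highest WT array and 0.881 on the lowest. WT arrays 5 and 6 of AT2G44760, AT2G39360, HEMA3 and AT2G26100 were low together, a pattern that this comparison of single arrays does not detect.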

How the results depend on the processing

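The number of steady genes was 52 by ratio of medians (42 shared) and by ratio of geometric means (50 shared), 49 with arrays scaled to equal medians (38 shared) and 54 on quantile-normalized values, of which 31 were shared. A minimum intensity of 0.5 left 21, one of 0.1 gave 77, and a narrower window (9% below to 10% above 1) gave 36. Leaving out 1 array gave 48 to 57. Without WT arrays 5 and 6 the number was 52, with 41 shared.

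limma called 16 steady genes after quantile normalization, 0 without normalization (2 at an unadjusted p under 0.05), 5 with median centring, of which 3 were among the 16, 19 with cyclic loess, 20 with the replicate block (14 of them among the 16) and 4 with averaged neighbouring arrays. Without WT arrays 5 and 6 it called 19, of which 11 were among the 16. Leaving out 1 array gave 10 to 15, with 10 without stn8 array 3 (68.1% of all probes). The share of all probes called was not counted without WT arrays 5 and 6 or without any other single array. These counts are therefore not read as a change of the steady genes. The median log2 fold change of the steady genes was -0.0042 without normalization, -0.111 in the fit and -0.0983 to -0.127 with 1 array left out. AT2G25870 was called lower in the fit (-0.21), stood at 0.017 without normalization, and was not called with the replicate block (adjusted p = 0.0966). AT3G09250 also lost its call with the block (adjusted p = 0.0656), and 6 other genes gained one. The median CV in stn8 was 9.61%, 8.57% on quantile-normalized values, 7.89% with averaged neighbouring arrays and 8.6% to 9.48% with 1 array left out. In WT it was 12.4%, 9.58% without arrays 5 and 6, and 11.8% to 13.2% with 1 array left out. The causes of these differences were not tested. AT2G28390 kept its direction and its call in all 21 alternatives, with log2 fold changes from 1.89 to 2.23.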

Other observations

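The 4 steady genes with a WT CV above 40% all carry locus codes of chromosome 2, beside 1 of the 9 other probes with such a CV. That 1 is AT2G26110, the next locus code after AT2G26100, with a CV of 39.7% in stn8 and 44.8% in WT and a ratio of 0.631. Of all 52 steady genes 11 carry locus codes of chromosome 2, and of the 329 other probes 61 do. A WT CV above 40% was found in 7.69% of the steady genes and in 2.74% of the others. The probes with such a CV were singled out after their values were seen.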
